A study of Mus musculus with 7 samples.

Results

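Tumor fibroblasts were taken from single-cell mRNA profiles of 7 mammary tumors as the cells that carried the mRNA of interstitial collagen and decorin and lacked that of epithelial, endothelial and white blood cells. A cell was a barcode with 200 to 6000 genes. A fibroblast had at least 5 UMIs over Col1a1, Col1a2, Col3a1 and Dcn together, at most 1 UMI over Epcam, Krt8 and Krt18, and 0 UMIs of Pecam1, Cdh5 and Ptprc, where a UMI (unique molecular identifier) marks 1 captured mRNA molecule. This gave 997 fibroblasts among 15047 cells. The comparison group, called collagen-free cells here, was the 12536 cells with 0 UMIs of Col1a1, Col1a2, Col3a1 and Dcn.

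The study asked what systemic loss of hexokinase 2 (HK2) does to mammary tumors, and profiled tumors by Drop-seq, in which cells and beads with barcodes share droplets. All 7 tumors used here were controls, 1 library per mouse, labelled MMTV-PyMT; HK2 f/f with the genotype Wild type. The mice carried the polyoma middle T oncogene under the MMTV promoter, which acts mainly in mammary epithelium, and floxed Hk2 alleles. The deletion was induced through ERT2Cre by tamoxifen in the knockout animals. The labels do not name a Cre or tamoxifen for the controls. The paper, however, states that control mice were injected with tamoxifen as well, once a primary tumor was palpable. The tumors with systemic deletion were not analysed here. The tumors were collected 3 months after they became palpable, and are numbered replicates 1, 2, 3, 4, 5, 7 and 8. The titles put replicates 1 to 4 in a CB series and 5, 7 and 8 in a WT series, and what separates these series is not named in the sources used here.

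Fibroblasts secrete and remodel the matrix between cells. They make fibrillar collagen chains, the small proteoglycans that bind the fibrils, the enzymes that fold, trim and crosslink collagen, and the proteases that cut it. In mammary tumors they lie around and between nests of epithelial tumor cells, and they are known as a source of growth factors, chemokines and complement proteins. Fibroblasts of the outer layer of vessels and of the fascia (adventitial fibroblasts) carry Pi16, Dpp4 and Cd55, and contractile fibroblasts (myofibroblasts) carry smooth muscle actin, Acta2.

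Among the cells recovered, fibroblasts were a small part in most tumors and a large part in 1. Replicates 1, 2, 3, 4, 5, 7 and 8 gave 99, 44, 49, 199, 54, 167 and 385 fibroblasts. As a share of the cells of the tumor this was 4.60%, 2.21%, 3.92%, 4.16%, 3.48%, 7.61% and 34.0%, with an exact 95% binomial interval of 31.2 to 36.8% in replicate 8. Replicate 8 thus lay apart from the other 6 tumors and supplied 38.6% of all fibroblasts, so levels are given per mouse, except where cells or UMIs of all tumors are said to be pooled or are counted together. Replicate 8 also had the fewest cells, 1133, and whether its share reflects the tumor or the recovery of cells was not tested.

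**Figure D1:**
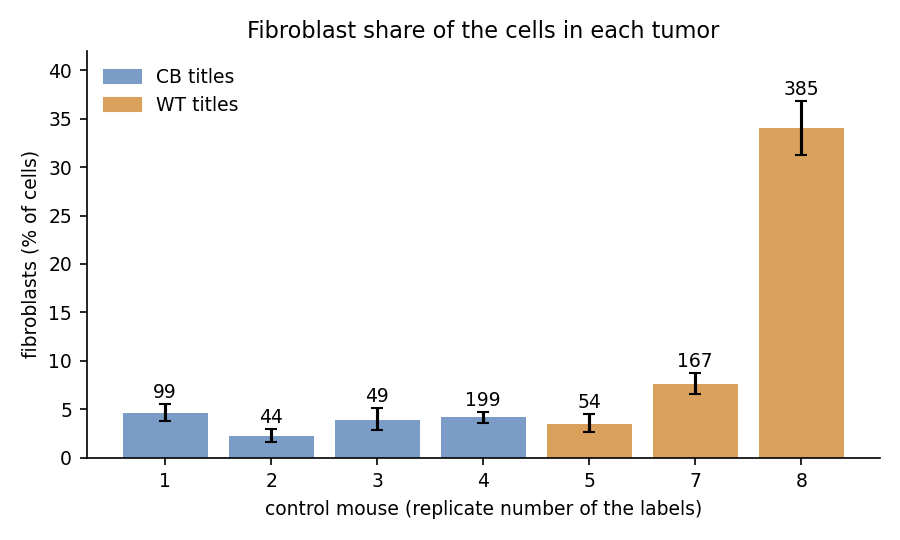
Fibroblasts as a percentage of the cells recovered from each of the 7 tumors. Bars are shares, error bars exact 95% binomial intervals (counting error only), numbers above the bars are fibroblasts, and colors mark the title series. Replicate 8 stands at 34.0% and the other 6 tumors lie between 2.21% and 7.61%.

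The summed UMIs of fibroblasts were 33070 to 348448 per tumor, and the median fibroblast of a tumor held 423 to 1162.5 UMIs, against 499 to 654 in collagen-free cells. The minimum of 5 UMIs favors deep cells, and 1283 cells with 1 to 4 UMIs of Col1a1, Col1a2, Col3a1 and Dcn belong to neither group. A further 231 cells had at least 5 of these UMIs but failed another condition, 216 of them through epithelial UMIs, 14 through Ptprc and 8 through endothelial UMIs, where a cell can fail more than 1. Barcodes with under 200 genes, which hold free RNA and may hold poor cells, had 432 to 1692 CPM (UMIs of a gene scaled to a fixed total of all UMIs) of the same genes in 6 tumors and 5847 CPM in replicate 8. Whether cells were shared between libraries was counted by their barcodes. Across libraries, 10 cells, 4 of them fibroblasts, carried a barcode found in another library, and the barcodes of 55 fibroblasts differed by 1 base from a deeper barcode of their own library.

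The limit of 5 UMIs cut through a range where epithelial RNA was still high. Pooled over the tumors, the 46 cells just inside it, with 5 or 6 UMIs, had 7981 CPM of the milk gene Csn3, 431 CPM of Lum and no UMI of Pdgfra, and the 60 cells just outside it, with 3 or 4 UMIs, had 9839 CPM of Csn3, 134 CPM of Lum and 26.7 CPM of Pdgfra. The 951 cells with at least 7 UMIs had 799 CPM of Csn3, 1741 CPM of Lum and 211 CPM of Pdgfra. Most members were well inside the limit, since the median fibroblast of a tumor held 22 to 66.5 UMIs of Col1a1, Col1a2, Col3a1 and Dcn.

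The genes of the rule are described without a test, because they chose the cells. Col1a2 (GRCm38 chr6:4504814-4541544, plus strand) and Col1a1 (chr11:94936224-94953042, plus strand) encode the chains of type I collagen. Col1a2 lay at 11085, 15754 and 17366 CPM (lowest, median and highest of 7 mice) and Col1a1 at 3339, 5218 and 7774 CPM. Col3a1 (chr1:45311538-45349706, plus strand), the chain of type III collagen, lay at 10320, 13460 and 18749 CPM, and Dcn (chr10:97479609-97518143, plus strand), which encodes the proteoglycan decorin, at 8643, 10478 and 13525 CPM. Together these genes made up 3.69 to 4.998% of the UMIs of the fibroblasts of a tumor. Pooled over the tumors, fibroblasts held 6.25% of the UMIs of all cells but 92.5% of those of Col1a1, 91.9% of Col1a2, 92.9% of Col3a1 and 69.1% of Dcn. Per mouse, the Dcn share ran from 34.1 to 91.5% and was 80.7% in the median mouse, and the Col1a2 share ran from 84.7 to 97.9%.

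The label of fibroblasts was then checked against markers that did not choose the cells. Pdgfra (chr5:75152292-75198215, plus strand), the receptor that marks fibroblasts in many tissues, lay at 123, 274 and 333 CPM in fibroblasts and at 0, 1.27 and 2.61 CPM in collagen-free cells. Lum, a proteoglycan of collagen fibrils, lay at 1115, 1739 and 1968 CPM against 0, 2.07 and 11.3 CPM. Col6a1 and Col6a2, chains of type VI collagen, lay at 699 to 1218 and at 605 to 1183 CPM, against at most 8.46 and 5.64 CPM. Pdgfrb, a receptor of fibroblasts and of pericytes, had 119 UMIs in fibroblasts and 3 in collagen-free cells. Serpinf1 and Mmp2, the remaining markers, followed the same pattern, and the ranges of all these markers in fibroblasts and collagen-free cells did not overlap over the 7 mice.

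Markers of other cell types were low in fibroblasts but not absent. Summed over 17 epithelial and milk genes, the level was 605, 1248 and 4442 CPM, against 24181 to 56576 CPM in collagen-free cells. Summed over 18 immune genes it was 60.5, 287 and 2660 CPM. The highest value was that of replicate 8, where 732 of the 927 immune UMIs lay in 1 cell, and without that cell, left out after its values were seen, replicate 8 had 566 CPM. Summed over erythroid genes the level was 0, 87.0 and 8262 CPM, highest in replicate 8. Over 11 endothelial genes it was 115 to 313 CPM and over 6 Schwann cell genes 121 to 273 CPM. Over 12 genes of mural cells (pericytes and vascular smooth muscle) it was 30.2, 252 and 873 CPM, against 30.4, 50.2 and 133 CPM in collagen-free cells. Of these 12, 11 had a UMI in fibroblasts, and the pericyte gene Notch3 was at 0, as was the endothelial gene Cldn5. The part of such RNA in the results that follow was not tested except where a value is given.

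**Figure D2:**
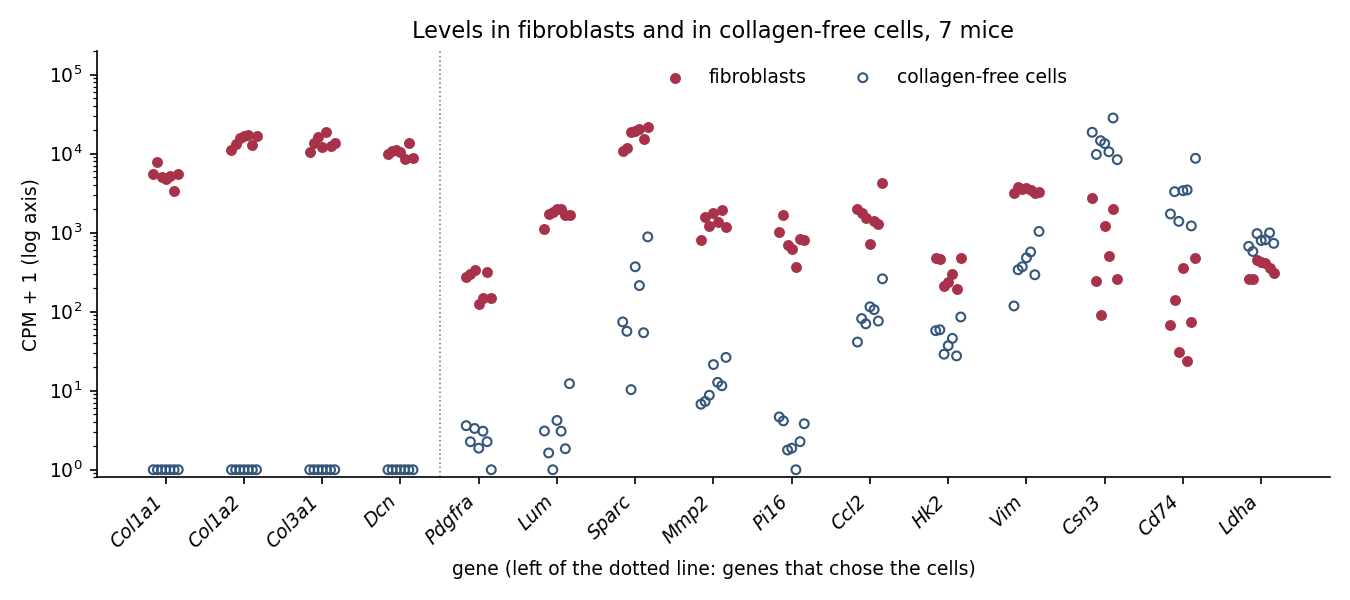
Levels of 15 genes in each of 7 mice, as CPM + 1 on a log axis. Filled red points are fibroblasts and open blue points collagen-free cells, and the genes left of the line chose the cells. Pdgfra, Lum, Sparc and Mmp2 lie higher in fibroblasts in every mouse, as does Hk2, while the milk gene Csn3 and the antigen presentation gene Cd74 lie lower.

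To describe which genes accompany collagen in these tumors, UMIs were summed per mouse for fibroblasts and for collagen-free cells, and the sums of 7 mice were compared by edgeR (quasi-likelihood), each mouse being a block. This is the contrast the rule itself made, so the p-values only size a difference against the spread between mice, and they are no evidence that the cells form a type. Adjusted p-values (Benjamini-Hochberg, threshold 0.05) are over all 5218 genes tested, of which 1115 (21.4%) were called higher and 1096 (21.0%) lower in fibroblasts. Log2 fold changes are relative to the normalized library, and their median over all genes tested was -0.10. A gene rare in collagen-free cells passed the filter on low counts only through fibroblasts and could then hardly be anything but higher, so the number of tested genes that would pass on the sums of collagen-free cells alone is given beside the counts of higher genes. For lower genes the same holds the other way round, and the number of lower genes that would pass on fibroblasts alone is given. Of all genes tested, 3469 would pass on collagen-free cells alone, 2569 on fibroblasts alone and 1959 on each.

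Genes of matrix fibres, proteoglycans and matrix proteases had the highest list medians. Of 34 genes of matrix fibres and adhesive glycoproteins, 33 were tested and all 33 were called higher (median log2 fold change 7.71), of 16 proteoglycan genes 12 of 12 (median 7.55), of 23 genes that fold, process and crosslink collagen 20 of 20 (median 4.63), and of 24 proteases and protease inhibitors of the matrix 19 of 19 (median 5.79). Only 2, 1, 3 and 4 of the tested genes in these lists would have passed on collagen-free cells alone, and these were also called higher. Most of these genes thus entered the test through their counts in fibroblasts, and the counts of calls are read as a description. Fibroblasts and collagen-free cells did not overlap for 32, 12, 20 and 16 of the genes, against 1070 of all 5218 genes tested, in either direction.

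Among fibre and glycoprotein genes, Mfap5, which encodes a protein of elastic microfibrils, lay at 1512, 3357 and 4045 CPM in fibroblasts against 0, 4.64 and 28.2 CPM. Postn, the matricellular protein periostin, lay at 1436, 2722 and 3461 CPM against 0.776, 6.75 and 70.5 CPM. Efemp1, a fibulin, had the largest difference of the list (log2 fold change 10.21, SE 0.32, adjusted p = 2.5e-14 by edgeR). Eln, elastin, and Col14a1, a collagen that associates with fibrils, lay at 454 to 1353 CPM and at 609 to 1343 CPM. Igfbp7, a secreted glycoprotein that vessels also make, differed less, at 2013, 3516 and 4826 CPM against 69.4, 181 and 849 CPM (log2 fold change 4.41).

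Of the proteoglycans, Bgn, biglycan, lay at 1452, 2939 and 3430 CPM against 3.37, 7.84 and 81.8 CPM. Has1, listed with them, encodes a hyaluronan synthase and lay at 498, 939 and 1522 CPM against at most 8.46 CPM. Among the collagen-processing genes, Serpinh1, the collagen chaperone HSP47, lay at 1467, 2173 and 2963 CPM against 44.1, 85.4 and 141 CPM, and Lox, lysyl oxidase, which starts the crosslinking of collagen, at 331, 817 and 1306 CPM against at most 5.64 CPM. Pcolce, an enhancer of the proteinase that trims procollagen, lay at 575 to 1171 CPM. Among the proteases, Mmp3 (stromelysin) lay at 491, 1210 and 1857 CPM against at most 14.1 CPM. Timp2, an inhibitor of such proteases, was found in both groups, at 1113, 1327 and 1796 CPM against 128, 253 and 298 CPM.

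Of 14 basement membrane genes 12 were tested and 11 called higher. None of the 12 would have passed on collagen-free cells alone, so the count is a description. Lama2, a laminin chain, lay at 151, 299 and 418 CPM against at most 2.82 CPM, and Nid1, nidogen, at 519, 695 and 974 CPM against 0 to 25.4 CPM. Col4a1, a chain of type IV collagen, lay at 571, 728 and 1338 CPM against 8.44, 14.0 and 127 CPM. Dpep1, a dipeptidase, and Cilp, a matrix protein, were among the 10 genes with the largest called differences. Dpep1 had 249 UMIs against 3, a ratio of 1033 after scaling to the total UMIs of each group (95% interval 349.5 to 5045, counting error only).

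Secreted signals were mixed. Of 51 growth factor ligands and regulators, 32 were tested, and 24 were called higher and 3 lower, while 8 would have passed on collagen-free cells alone, of which 2 were higher, and 1 of the 3 lower genes would have passed on fibroblasts alone. Sfrp4, an inhibitor of Wnt ligands, had 187 UMIs in fibroblasts and 0 in collagen-free cells, which makes it at least 776-fold higher when 3 UMIs over the whole group are taken as the floor. Of the IGF-binding proteins, Igfbp2, Igfbp3, Igfbp4 and Igfbp6 were called higher. Igfbp6 lay at 484, 638 and 1357 CPM against at most 3.37 CPM, and Igfbp4 at 558, 1082 and 1505 CPM against 18.1 to 66.0 CPM. Igfbp5 lay at 851, 1412 and 8203 CPM against 1311, 2681 and 3826 CPM and was not called (log2 fold change -0.28, adjusted p = 0.37 by edgeR).

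Among growth factor receptors, 14 of 16 tested genes (of 21) were called higher, and 3 would have passed on collagen-free cells alone. Pdgfra is given above. Tgfbr2, the type II receptor of TGF-beta, lay at 305, 417 and 482 CPM against 17.9, 35.9 and 45.6 CPM, and Fgfr1 at 193, 333 and 417 CPM against 69.1, 99.1 and 162 CPM. Both receptors thus lay higher in fibroblasts in all 7 mice, Tgfbr2 by a log2 fold change of 3.77 and Fgfr1 by 1.80.

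Of 23 chemokines and cytokines, 11 of 15 tested were called higher and 3 lower, and of the 7 that would have passed on collagen-free cells alone 3 were higher. None of the 3 lower genes would have passed on fibroblasts alone. Cxcl1, which attracts neutrophils, lay at 1181, 2144 and 6916 CPM against 144, 311 and 392 CPM. Ccl2 and Ccl7, which attract monocytes, lay at 720, 1542 and 4233 CPM and at 398, 1240 and 3378 CPM, against 40.3, 80.7 and 259 CPM and 40.3, 64.4 and 406 CPM. Replicate 8 had the highest Ccl2 and Cxcl1 of the 7 mice, and without it the log2 fold changes were 4.11 and 2.97, against 4.30 and 3.36 with it. Ccl11, which attracts eosinophils, had 258 UMIs in fibroblasts against 2 in collagen-free cells (ratio 1606, 95% interval 440 to 13330, counting error only).

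Of 18 complement and acute-phase genes, 8 of 13 tested were called higher and 2 lower, and of the 5 that would have passed on collagen-free cells alone 1 was higher. Both lower genes would also have passed on fibroblasts alone. Serping1, the C1 inhibitor, lay at 1304, 1966 and 3324 CPM against 1.26, 2.33 and 22.6 CPM, C3 at 439, 991 and 1516 CPM against 6.75 to 20.7 CPM, and C1s1, a protease of the C1 complex, at 597, 726 and 1130 CPM against 2.33 to 19.7 CPM. Lcn2, an acute-phase protein of the tumor epithelium, went the other way, at 30.2, 139 and 624 CPM against 4165 to 12113 CPM.

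Of 16 adventitial fibroblast markers, 12 of 12 tested were called higher, with 3 passing on collagen-free cells alone. Gsn (gelsolin) was the most abundant, at 2050, 3629 and 7339 CPM against 50.2 to 101 CPM. Pi16 lay at 363, 815 and 1652 CPM against at most 3.66 CPM and Clec3b at 316, 499 and 1322 CPM against at most 1.57 CPM. Ly6a and Ly6c1, which endothelial and immune cells also carry, lay at 1665 to 3374 CPM and at 578 to 1578 CPM, against 194 to 1104 CPM and 15.5 to 152 CPM. Of 14 contractile and myofibroblast genes, 8 of 10 tested were called higher, with 4 passing on collagen-free cells alone. Cald1, caldesmon, lay at 1115, 1395 and 1985 CPM against 195 to 581 CPM and Cthrc1 at 87.0, 321 and 816 CPM against at most 8.46 CPM. Acta2 lay at 104, 242 and 992 CPM against 6.94 to 74.0 CPM, and Tpm1 did not pass the threshold (log2 fold change 0.26, adjusted p = 0.21 by edgeR).

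Among 25 mesenchymal transcription factors, 10 were tested, and 9 were called higher and 1 lower, with 4 passing on collagen-free cells alone and the lower gene not passing on fibroblasts alone. Prrx1 lay at 246, 272 and 400 CPM against 0 to 11.3 CPM and Ebf1 at 284, 374 and 726 CPM against 0 to 40.4 CPM. Klf4 and Tcf4 were found in both groups, at 894 to 1654 and at 367 to 1270 CPM, against 274 to 590 and 51.5 to 195 CPM. Of 13 adipocyte genes 3 of 5 tested were called higher and 2 lower, with 3 passing on collagen-free cells alone and 1 of the 2 lower genes passing on fibroblasts alone. Among the higher ones were Apod (1474, 2178 and 5806 CPM against 5.04 to 171 CPM) and Lpl, lipoprotein lipase, at 227 to 953 CPM. None of the 12 mural genes passed the filter on low counts. Without a filter 9 of the 12 were called higher and 1 lower, against 1785 and 3300 of all 31017 genes. Their median log2 fold change was 3.87, against -0.64 for all genes. The rule has no condition on mural genes, and whether mural cells are among the fibroblasts was not tested.

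Epithelial, immune and antigen presentation genes were lower, and the rule had left out cells that carry the first 2 kinds. All 15 tested epithelial and milk genes and 10 of 11 tested immune genes were called lower, as were all 6 tested genes of class II antigen presentation. On fibroblasts alone 4, 0 and 0 of these genes would have passed, so the counts are a description. Cd74, the invariant chain of class II molecules, lay at 22.7, 73.2 and 471 CPM against 1215, 3296 and 8705 CPM. Against epithelial cells alone, Cd74 did not pass the threshold (log2 fold change -0.58, adjusted p = 0.078 by edgeR), and neither did H2-Aa or H2-Ab1. Of 16 cell cycle genes, 6 of 9 tested were called lower, with none passing on fibroblasts alone. Hmgb2 lay at 17.6, 60.3 and 113 CPM against 120 to 339 CPM, and the call for Pcna (adjusted p = 0.039 by edgeR) was lost under alternatives, among them the fit without the mouse as a block (adjusted p = 0.17). Of 14 immediate early genes, which respond within minutes to handling and to growth factors, 3 were called higher and 3 lower, and 13 would have passed on each group alone. Egr1 lay at 976, 3029 and 4357 CPM against 423 to 2556 CPM, and Fos and Jun did not pass the threshold. In the small lists that remain, none of 4 tested erythroid genes was called and none would have passed on collagen-free cells alone. Of 3 tested Schwann cell genes S100b and Ncam1 were called higher and Sox10 lower, with 1 passing on collagen-free cells alone and Sox10 not passing on fibroblasts alone. Krt14 was the single myoepithelial gene tested, would not have passed on fibroblasts alone and was called lower. Ramp2, the single endothelial gene tested, was called higher at 40.2 to 181 CPM against 0.776 to 22.6 CPM and would not have passed on collagen-free cells alone.

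**Figure D3:**
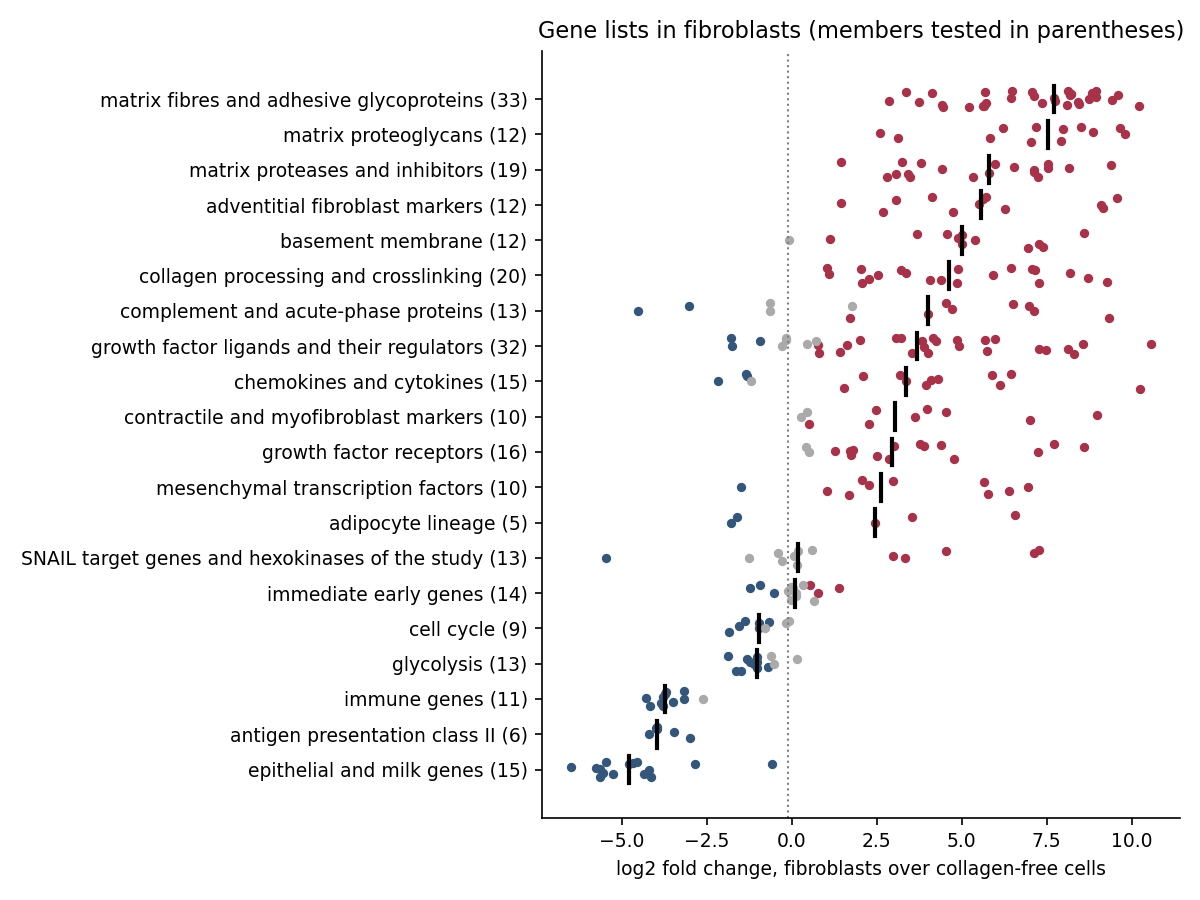
Log2 fold change between fibroblasts and collagen-free cells for each tested member of every list with at least 5 tested members. Red points were called higher, blue points lower and grey points not called (edgeR, adjusted p under 0.05), black bars are list medians, and the dotted line is the median of all genes, -0.10. Matrix fibres and proteoglycans lie highest, with medians of 7.71 and 7.55, and epithelial genes lowest, with a median of -4.77.

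Hk2 (chr6:82725025-82774454, minus strand), the hexokinase the study deleted, was several-fold higher in fibroblasts than in the other cells of the same tumors. It lay at 193, 295 and 476 CPM in fibroblasts and at 26.6, 44.9 and 84.6 CPM in collagen-free cells. The 2 groups did not overlap, and fibroblasts were higher in 7 of 7 mice (log2 fold change 2.99, SE 0.16, adjusted p = 9.7e-12 by edgeR). Hk2 would not have passed the filter on collagen-free cells alone, and in the fit of all genes without a filter its log2 fold change was 2.61 (adjusted p = 3.5e-26 by edgeR). The log2 fold change was 2.86 without replicate 8, 2.56 with cells of 500 to 1500 UMIs in both groups, and 2.56 to 3.23 over all alternatives. Hk1, which encodes the hexokinase of most adult tissues, lay at 0, 36.6 and 52.2 CPM against 33.8, 52.7 and 76.1 CPM and did not pass the threshold (log2 fold change -0.41, adjusted p = 0.26 by edgeR). Hk3 had 1 UMI and Hkdc1 had 0 UMIs among the 995099 UMIs of fibroblasts.

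By cell group, the mean level of Hk2 was 336 ± 132 CPM (SD, n = 7 mice) in fibroblasts, 57.4 ± 27.9 CPM in collagen-free cells with a UMI of Ptprc, 43.6 ± 21.5 CPM in those with epithelial UMIs, and 48.0 ± 39.8 CPM in basal-keratin cells, those with Krt5, Krt14, Krt17 or Trp63 that are defined further on. Barcodes with under 200 genes had 70.4 ± 49.5 CPM, with a highest value of 178 CPM, below the lowest fibroblast value of 193 CPM. A UMI of Hk2 was found in 21.9% of fibroblasts (218 of 997, median 716 UMIs per cell), 4.01% of Ptprc cells (median 572.5 UMIs) and 4.57% of epithelial cells (median 851 UMIs). With each cell thinned to 500 UMIs, which left out 328 fibroblasts, 689 Ptprc cells and 1671 epithelial cells, the shares were 14.6%, 2.36% and 2.06%. Pooled over the tumors, fibroblasts held 6.25% of the UMIs of all cells but 36.1% of those of Hk2, from 15.9% in the lowest to 75.5% in the highest mouse.

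Hk2 belongs to a list of 18 genes that the study follows. The list holds Vim, Mmp2, Sparc, Tagln, Cdh1, Cldn1 and Dsp, taken as targets of the transcription factor SNAIL, with Snai1 itself, the hexokinases and genes of signaling proteins. The targets were chosen by the study on these samples among others, so they are not independent evidence of a direction. Of the 18 genes, 13 were tested, and 5, Hk2 among them, were called higher and 1 lower. Of the 7 that would have passed on collagen-free cells alone, only 1, Vim, was called higher and 1 lower. Vim, the intermediate filament vimentin, lay at 3183, 3505 and 3791 CPM against 117, 370 and 1035 CPM (log2 fold change 3.32, SE 0.26, adjusted p = 3.6e-09 by edgeR). Sparc, a matrix glycoprotein, lay at 10679, 18657 and 21834 CPM against 9.32, 73.2 and 883 CPM, and Mmp2, a gelatinase, at 813, 1373 and 1908 CPM against 5.75, 10.5 and 25.4 CPM. Tagln, transgelin, lay at 30.2, 74.6 and 350 CPM against 1.55, 4.71 and 16.6 CPM. All 4 of these genes were higher in 7 of 7 mice without overlap. The share of the UMIs of all cells that lay in fibroblasts was 19.2, 27.6 and 64.7% (lowest, median and highest mouse) for Vim, 56.5, 87.3 and 96.0% for Sparc, 69.2, 82.9 and 89.2% for Mmp2, and 24.2, 34.6 and 72.2% for Tagln.

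Cdh1, the epithelial adhesion protein E-cadherin, had 3 UMIs in fibroblasts against 1806, and epithelial cells were left out by the rule. Cdh1 would not have passed the filter on fibroblasts alone. Snai1 itself had 40 UMIs in fibroblasts and did not pass the filter on low counts, and without a filter it was called higher (log2 fold change 1.67, adjusted p = 1.0e-04 by edgeR). Gsk3a, Gsk3b, Prkar1a, Mcl1 and Nfe2l2, genes of the signaling proteins the study follows, were not called, although without a filter Mcl1 was called lower (log2 fold change -0.68, adjusted p = 0.016 by edgeR). Nfe2l2, the antioxidant regulator NRF2, lay at 90.7, 151 and 224 CPM against 89.9, 137 and 338 CPM, and its direction depended on the comparison group, at -0.98 on the log2 scale against Ptprc cells and 0.91 against epithelial cells. Gsk3b and Prkar1a also changed sign under 3 or more alternatives.

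**Figure D4:**
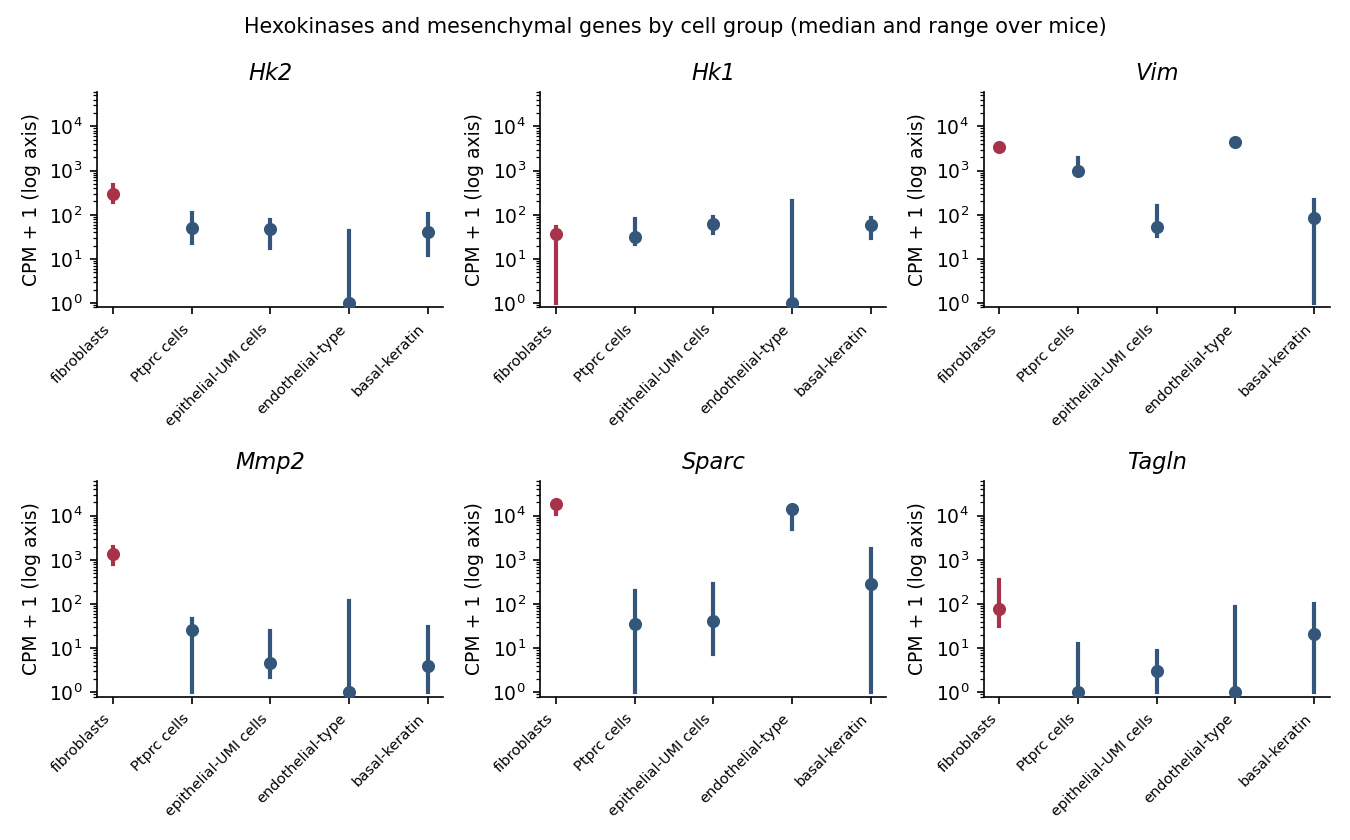
Levels of Hk2, Hk1, Vim, Mmp2, Sparc and Tagln in 5 groups of cells, as CPM + 1 on a log axis. Points are medians and lines the range over mice (7 mice, or 3 for endothelial-type cells). Hk2 spans 193 to 476 CPM in fibroblasts, and Hk1 shows no such difference.

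Most tested glycolysis genes were lower in the same fibroblasts. Of 17 glycolysis genes, 13 were tested, none was called higher and 10 were called lower, with a median log2 fold change of -1.03 against -0.10 for all genes. Of the 13, 7 would have passed the filter on each group alone, and 6 of these were called lower and 0 higher. Without a filter all 17 were tested, of which 12 were called lower and 1 higher, against 3300 and 1785 of all 31017 genes. The higher gene was the lactate transporter gene Slc16a1, named after its values were seen. The median of the 17 was -1.39 against -0.64 for all genes. Ldha, lactate dehydrogenase A, lay at 255, 355 and 454 CPM against 576, 794 and 992 CPM (log2 fold change -1.01, SE 0.15, adjusted p = 1.7e-05 by edgeR). Aldoa, aldolase A, lay at 139, 321 and 369 CPM against 517, 643 and 747 CPM, and Pkm, pyruvate kinase, at 87.0, 236 and 275 CPM against 602, 640 and 821 CPM. These groups did not overlap in any of the 3 genes, and all 3 calls held under every alternative for this comparison. With the library size taken without Col1a1, Col1a2, Col3a1 and Dcn the log2 fold change of Ldha was -1.02.

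Fibroblasts were next compared with another stromal cell type. Endothelial-type cells were defined by at least 3 UMIs over 6 endothelial genes, under 5 UMIs of Col1a1, Col1a2, Col3a1 and Dcn, at most 1 epithelial UMI and 0 of Ptprc. Only replicates 4, 5 and 8 had at least 10 of them (22, 15 and 18 cells), so this comparison rests on 3 mice and on few cells. Of 1020 genes tested, 257 (25.2%) were called higher and 133 (13.0%) lower in fibroblasts by edgeR. Of the genes tested, 507 would have passed the filter on endothelial-type cells alone. Of 26 tested fibre and glycoprotein genes 24 were higher and 1, Igfbp7, was lower, but only 2 of the 26 would have passed on endothelial-type cells alone and neither was called higher, so the 24 are a description. Many of these genes had 0 UMIs in endothelial-type cells, where folds are lower bounds. Apod was at least 47.9-fold higher, Cilp 34.5-fold, Lum 33.6-fold, Mmp3 29.6-fold and Cxcl14 27.4-fold, each against a floor of 3 UMIs.

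Vimentin and the basement membrane did not follow this pattern. Vim lay at 3298, 3505 and 3631 CPM in the fibroblasts of the 3 mice and at 3518, 4376 and 4929 CPM in endothelial-type cells, and did not pass the threshold (log2 fold change 0.04, SE 0.26, adjusted p = 0.92 by edgeR). The log2 fold change is relative to the normalized library and the CPM are not, so their directions need not match. Of 10 tested basement membrane genes, 4 were called higher and 3 lower, and 7 would have passed on endothelial-type cells alone. Nid1 lay at 519 to 805 CPM against 251 to 591 CPM (log2 fold change 0.98, SE 0.38), whereas Col4a1 lay at 571 to 1338 CPM against 1424 to 2129 CPM (log2 fold change -0.79, SE 0.28). Both calls were fragile, since each was lost in 5 of 6 alternatives, with adjusted p by edgeR or DESeq2 of up to 0.198 for Nid1 and 0.91 for Col4a1. Sparc lay at 19198, 20655 and 21834 CPM against 4984, 13998 and 14371 CPM (log2 fold change 1.34), a far smaller difference than against collagen-free cells, and was not called under 1 alternative.

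All 6 tested genes of the endothelial list were called lower than in endothelial-type cells, as were Pkm, Nfe2l2 and Hbegf, which are not particular to vessels. None of the 6, and none of Pkm, Nfe2l2, Hbegf and Igfbp3 (given below), would have passed on fibroblasts alone, so these calls are a description. The calls for Pkm and Nfe2l2 were each lost in 4 of 6 alternatives. Gpihbp1, which holds lipoprotein lipase at the capillary wall, had 0 UMIs in fibroblasts and was at least 430-fold lower, and Tmem252 and the adhesion gene Sele were at least 137-fold and 105-fold lower. Plvap lay at 14.3 to 56.7 CPM against 963 to 1972 CPM. Igfbp3 lay at 68.1 to 238 CPM against 1215 to 2661 CPM, and Sparcl1 at 626 to 930 CPM against 3434 to 3812 CPM. Hk2 had 232 UMIs in fibroblasts of these mice and 1 in endothelial-type cells, a ratio of 21.4 with a 95% interval of 3.80 to 849 (counting error only).

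Basal-keratin cells, a group named for its rule, were defined by at least 3 UMIs over Krt5, Krt14, Krt17 and Trp63. They also had under 5 UMIs of Col1a1, Col1a2, Col3a1 and Dcn together and 0 UMIs of Pecam1, Cdh5 and Ptprc. Of these cells, 12 to 70 were found in each of the 7 mice (220 in all). They are not called myoepithelial here, and what they are was not tested. They had 1052 ± 640 CPM (SD, n = 7) of the PyMT transgene, against 939 ± 330 CPM in barcodes with under 200 genes. Fibroblasts had 62.2 ± 56.7 CPM, collagen-free cells with a UMI of Ptprc 225 ± 111 CPM and those with epithelial UMIs 1899 ± 1295 CPM. Without a filter Tagln and Myl9 were lower in basal-keratin cells than in fibroblasts, by 2.45 and 1.99 on the log2 scale, while Cnn1, Tpm1, Tpm2 and Actn1 were not called. Of 1402 genes tested, 423 (30.2%) were called higher and 251 (17.9%) lower in fibroblasts by edgeR. Of the genes tested, 702 would have passed the filter on basal-keratin cells alone. All 26 tested fibre genes and all 9 tested basement membrane genes were called higher, but none of either list would have passed on basal-keratin cells alone, so these counts are a description. Col4a1 lay at 571 to 1338 CPM against 0 to 204 CPM. Vim lay at 3183, 3505 and 3791 CPM against 0, 81.6 and 216 CPM, and Sparc at 10679 to 21834 CPM against 0 to 1713 CPM. Of 6 tested contractile genes, of which 4 would have passed on basal-keratin cells alone, 1 was called higher and 1 lower with the filter. Without it 7 of all 14 were called higher and 0 lower, against 1364 and 634 of all 20884 genes. Cald1 was higher in 7 of 7 mice without overlap, at 1115, 1395 and 1985 CPM against 516, 667 and 1102 CPM (log2 fold change 1.26, SE 0.18, adjusted p = 2.1e-05 by edgeR). Acta2 lay at 104, 242 and 992 CPM against 5.62, 114 and 816 CPM (log2 fold change 1.27, adjusted p = 0.069 by edgeR), and was called higher without a filter (1.55, adjusted p = 3.6e-04 by edgeR). Tpm1 was lower in fibroblasts, at 296, 514 and 633 CPM against 503, 1086 and 1917 CPM (log2 fold change -0.73, adjusted p = 0.010 by edgeR).

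Hk2 was higher than in basal-keratin cells, and with the filter most tested glycolysis genes were lower. Hk2 lay at 193 to 476 CPM against 11.3 to 105 CPM, without overlap (log2 fold change 3.18, SE 0.31, adjusted p = 1.8e-07 by edgeR). It would not have passed the filter on basal-keratin cells alone, and without a filter its log2 fold change was 3.26 (adjusted p = 1.8e-14 by edgeR). Of 7 tested glycolysis genes 6 were called lower and 0 higher, and the 2 that would have passed on fibroblasts alone were among the lower. Without a filter 6 of 17 were called lower and 1, Slc16a1, higher, against 634 and 1364 of all 20884 genes. In that fit Ldha (log2 fold change -0.81) and Gapdh (-0.44) did not pass the threshold. Pkm lay at 87.0 to 275 CPM against 445 to 1010 CPM. Against endothelial-type cells, 3 glycolysis genes were tested, Pkm was called lower, and Aldoa and Ldha were not called, with Ldha at 304 to 422 CPM against 177 to 394 CPM, higher in fibroblasts in 3 of 3 mice. Cpxm1, Pi16, Igfbp6 and Efemp1 had no UMI in basal-keratin cells and were at least 294, 213, 176 and 166-fold higher. The claudin gene Cldn4 and the epithelial secretory genes Plet1 and Wfdc18 were lower, the last 2 by log2 fold changes of -6.07 and -5.44, and the epithelial UMIs allowed in basal-keratin cells were not allowed in fibroblasts.

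Fibroblasts of different tumors were not alike. Over 1708 genes with at least 100 UMIs in fibroblasts, the variance between mice was compared with the Poisson variance expected at the depth of each sum. The median ratio was 2.79, and 1094 genes had a ratio over 2. Between the cells of a mouse the median ratio was 1.12, so that most genes showed little excess over counting error at this depth. These values are descriptions without a test.

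Mgp, matrix Gla protein, which inhibits calcification, had the highest variance ratio between mice, 641. This ratio also grows with the UMIs of a gene. By the SD of log2 CPM over mice, with 20 CPM added, Hbb-bs (2.98) and Spp1 (2.8) varied more than Mgp (1.35). Mgp lay at 1087, 5660 and 19368 CPM, highest in replicate 4 and lowest in replicate 1. Fos lay at 1111 CPM in replicate 8 and at 3477 to 5749 CPM in the other 6 mice. Spp1, osteopontin, lay at 0, 454 and 3256 CPM, and was found in 11.1% of fibroblasts. At the other end Zeb2, a transcription factor of mesenchymal and myeloid cells, lay at 167, 180 and 207 CPM in the 7 mice, and Fam102b, Eif4g3, Cul1 and Akap9 were as even.

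Igfbp5 and the chemokines varied between mice across many cells. Igfbp5, which binds IGF, lay at 8203 CPM in replicate 1 and at 851 to 2138 CPM in the others, and its 868 UMIs in replicate 1 came from 53 of 99 fibroblasts, 154 of them from 1 cell. Cxcl2 lay at 2947 CPM in replicate 8 and at 31.4 to 522 CPM elsewhere, and came from 157 of its 385 fibroblasts. Ccl2 in replicate 8 came from 213 cells. Cxcl1, Cxcl2 and Ccl2 were thus all highest in replicate 8, the tumor with the largest share of fibroblasts, the most free RNA of the matrix genes and the highest erythroid sum. These cannot be told apart with 1 such tumor.

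The immunoglobulin genes varied through 1 cell. The immunoglobulin gene Igkc had 745 UMIs in the fibroblasts of replicate 8, of which 730 (98.0%) lay in 1 cell, and that was also the pattern of Igha, with 485 of 496 UMIs in 1 cell, Igkv8-30, with 145 of 146, and Jchain, with 102 of 104. All 4 genes were highest in the same cell. Immunoglobulin genes are known from plasma cells. The hemoglobin gene Hbb-bs had 1641 UMIs in replicate 8, spread over 254 of 385 fibroblasts. Between cells of a mouse, Igkv8-30, Jchain, Spp1 and Mgp had the largest variance ratios, followed by Col3a1, Apoe and Malat1.

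A first split among fibroblasts used the adventitial genes Pi16, Dpp4, Sema3c, Clec3b and Cd55. Cells with at least 1 UMI of these (565 of 997, or 56.7%, and 43.7 to 72.7% per mouse) were compared with those without, in all 7 mice. Of 860 genes tested by edgeR, leaving out these 5, 56 (6.51%) were called higher and 20 (2.33%) lower in adventitial-positive cells. Other adventitial genes were among the higher ones, 5 of 7 tested, as were 7 of 27 fibre genes, 4 of 10 proteoglycans, 4 of 12 chemokines and 3 of 5 complement genes. On adventitial-free cells alone, 365 of the 860 genes would have passed the filter, among them 3 of the adventitial, 12 of the fibre, 2 of the proteoglycan, 5 of the chemokine and 4 of the complement genes, of which 2, 4, 0, 2 and 3 were called higher. Of 6 tested contractile genes 4 were lower and none higher, and of the 2 that would have passed on adventitial-positive cells alone 1 was lower. Without a filter 4 of 14 were called lower and 1 higher, against 39 and 118 of all 18270 genes. The higher gene was Cthrc1 (log2 fold change 0.97, adjusted p = 0.047 by edgeR).

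Ly6c1, a surface protein, lay at 934, 1517 and 2236 CPM in adventitial-positive and at 106, 413 and 743 CPM in adventitial-free fibroblasts (log2 fold change 1.90, SE 0.24, adjusted p = 1.7e-04 by edgeR). Pcolce2, an enhancer of procollagen trimming, lay at 247, 517 and 876 CPM against 51.4, 124 and 245 CPM, and Ogn, the proteoglycan osteoglycin, at 656, 868 and 1152 CPM against 144, 301 and 621 CPM. These 3 genes, like Ly6a, Lrrn4cl, Gstm1 and Tgfbr2, did not overlap between the 2 sets of cells. Of these 7 genes only Ly6a would have passed the filter on adventitial-free cells alone, so the differences of the others are a description. The number without overlap among all 860 genes tested was not counted, so no share stands beside these 7. Dpt, dermatopontin, was higher in 7 of 7 mice with ranges that overlapped, at 2217 to 4546 CPM against 370 to 2971 CPM. C3 and Ccl11 were higher by log2 fold changes of 0.92 and 0.996, and these calls were lost in 7 of 11 and 4 of 10 alternatives. The calls for Serping1, Ccl7 and Cxcl1 were also each lost in 7 of 11.

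For several fibroblast genes no difference was detected in this split. Col1a1, one of the genes that chose the cells of both sets, lay at 3189 to 8049 CPM against 3622 to 6260 CPM and is described without a test. Lum (0.11), Sparc (0.01), Postn (-0.10) and Pdgfra (0.06) had small log2 differences that did not pass the threshold.

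Hk2 was higher in adventitial-positive fibroblasts. It lay at 219, 397 and 661 CPM in adventitial-positive and at 86.4, 154 and 272.5 CPM in adventitial-free fibroblasts, higher in 7 of 7 mice although the ranges overlapped (418 ± 180 against 159 ± 62.5 CPM, SD, n = 7). The log2 fold change was 1.298 (SE 0.25, adjusted p = 0.0052 by edgeR) and 1.09 to 1.51 over the 10 alternatives in which it was tested. It would not have passed the filter on adventitial-free cells alone, and 1.51 (adjusted p = 8.8e-05 by edgeR) is its value without a filter. With cells thinned to 500 UMIs, Hk2 had too few UMIs to pass the filter. The median of adventitial-free fibroblasts, 154 CPM, lay above the highest value of collagen-free cells, 84.6 CPM, but their lowest value, 86.4 CPM, was close to it. That lowest value lay below the highest of Ptprc cells (107 CPM), basal-keratin cells (105 CPM) and barcodes with under 200 genes (178 CPM).

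Acta2 was the gene tested with the largest difference in the other direction, at 0, 60.7 and 281 CPM in adventitial-positive and at 372, 473 and 2448 CPM in adventitial-free fibroblasts, without overlap (log2 fold change -2.84, SE 0.30, adjusted p = 9.4e-05 by edgeR). Acta2 would not have passed the filter on adventitial-positive cells alone, and without a filter its log2 fold change was -2.63 (adjusted p = 9.2e-16 by edgeR). Tpm2, a muscle tropomyosin, lay at 50.6, 95.5 and 274 CPM against 171, 320 and 1325 CPM, and Crabp1, which binds retinoic acid, at 0, 68.2 and 377 CPM against 56.5, 372 and 1560 CPM. Sparcl1 and Col4a1, which mural and endothelial cells also carry, were lower by log2 fold changes of -1.48 and -0.93.

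Depth and RNA of other cells moved with this split. The median cell held 882 UMIs in adventitial-positive and 503 in adventitial-free fibroblasts (medians over mice). The epithelial and milk genes summed to 789 against 2730 CPM (medians), lower in adventitial-positive cells in 6 of 7 mice, and Csn3 was itself called lower (log2 fold change -1.92). The mural genes summed to 72.3 against 398 CPM and the immune genes to 137 against 678 CPM, each again as medians. The pericyte gene Rgs5 had 3 UMIs in adventitial-positive and 75 in adventitial-free cells. What part these cells or their RNA had in the lower Acta2 and Tpm2 was not tested. Thinning every cell to 500 UMIs left 341 genes tested, of which 19 were called higher and 15 lower. Without replicate 4, 5 or 7 the count of calls fell from 76 to 39, 45 and 45.

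**Figure D5:**
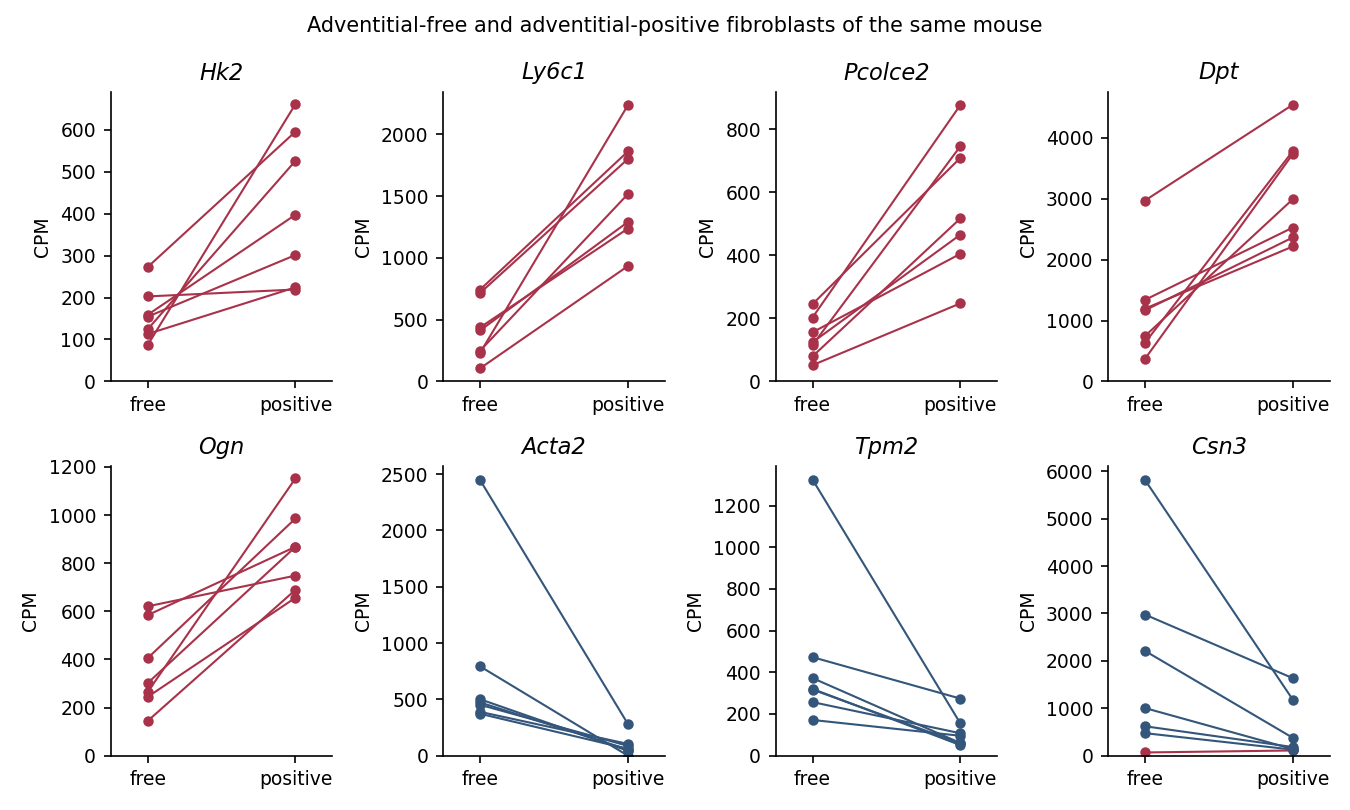
Levels of 8 genes, as CPM, in adventitial-free and adventitial-positive fibroblasts. Each line joins the 2 sums of 1 of 7 mice, red where the level was higher in adventitial-positive cells and blue where it was lower. Hk2, Ly6c1, Pcolce2, Dpt and Ogn go up in 7 of 7 mice, Acta2 and Tpm2 go down in 7 of 7, and Csn3 goes down in 6 of 7.

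A second split used the contractile genes Acta2 and Tagln. At least 1 UMI of these was found in 113 fibroblasts (11.3%, and 3.59 to 20.4% per mouse), and replicates 1, 4, 5 and 8 had at least 10 such cells. Of 1164 genes tested by edgeR, 17 (1.46%) were called higher and 36 (3.09%) lower in contractile-positive cells. Tpm2 lay at 242, 554, 618 and 1531 CPM in contractile-positive cells of replicates 8, 5, 4 and 1, against 30.9 to 86.6 CPM in contractile-free cells (log2 fold change 3.11, SE 0.49). Igfbp2, which binds IGF, lay at 1184 to 5360 CPM against 56.7 to 570 CPM, and the actin-binding genes Flna and Cnn2 were higher by log2 fold changes of 1.94 and 2.07. None of these 4 genes would have passed the filter on contractile-free cells alone, as 8 of the 17 higher genes would, so their differences are a description. Of 7 tested contractile and myofibroblast genes 4 were called higher and 0 lower, and Lrrc15, Cthrc1 and Cald1 were not called. On contractile-free cells alone 3 of the 7 would have passed, of which 1 was higher.

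Of 10 tested adventitial genes 5 were called lower in contractile-positive cells and 0 higher, and 3 of the 5 would have passed the filter on these cells alone. Gsn lay at 543 to 822 CPM against 2377 to 6179 CPM (log2 fold change -2.33, SE 0.26, adjusted p = 5.4e-04 by edgeR), and Clec3b at 0 to 340 CPM against 380 to 1460 CPM. Neither gene overlapped, and the number without overlap among all 1164 genes tested was not counted. Of 7 tested complement and acute-phase genes, 1 of which would have passed on contractile-positive cells alone, 6 were called lower, C3 and C1s1 by log2 fold changes of -2.19 and -1.58, and 1, Lcn2, higher. Col1a1, again described without a test, lay at 4793 to 8435 CPM against 4050 to 5995 CPM. Hk2 lay at 113 to 290 CPM against 249 to 652 CPM and did not pass the threshold (log2 fold change -1.18, adjusted p = 0.083 by edgeR), but was called lower without a filter (-1.54, adjusted p = 0.0083 by edgeR).

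The calls of this second split rested on few mice. Without replicate 1 it gave 3 calls in place of 53, without replicate 4 it gave 18 and without replicate 8 it gave 34, and with every cell thinned to 500 UMIs it gave none by edgeR, with 55 of 309 genes at an unadjusted p under 0.05. Contractile-positive cells were deeper (medians of 1349 against 645 UMIs), had 4160 against 1669 CPM of epithelial and milk genes, and 815 against 234 CPM of mural genes, higher in 3 of 4 mice for both lists. Myoepithelial genes summed to 482 against 113 CPM in replicate 1 and 84.5 against 3.76 CPM in replicate 8. They summed to 0 against 7.31 CPM in replicate 4 and to 0 in both sets of replicate 5. The part of these cells or their RNA in the differences was not tested.

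Whether the 2 sets of markers lay in the same cells was asked with every cell thinned to 500 UMIs, since a deep cell has more chances to show both, and with the share of contractile-positive cells compared within each mouse. That share was 0, 3.65 and 7.14% (lowest, median and highest of 6 mice) in adventitial-positive and 4.62, 13.5 and 42.3% in adventitial-free fibroblasts. It was lower in adventitial-positive cells in 6 of 6 mice, with a mean difference of -13.5 percentage points (SD 11.9) and p = 0.03125 by an exact permutation test that flips signs (two-sided), the smallest p that 6 mice allow. The counts were small, with 9 of 308 adventitial-positive and 48 of 339 adventitial-free cells in all. Single cells could set the sign in replicate 2 (1 of 21 against 1 of 10) and replicate 7 (2 of 64 against 3 of 65). Without thinning the difference was -12.03 points, lower in 7 of 7 mice (exact sign-flip p = 0.015625), and with 300 UMIs per cell it was -7.61 points, lower in 5 of 7 mice, which did not pass (exact sign-flip p = 0.0625).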

How the data were processed

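Single-cell suspensions of 7 control tumors were profiled by Drop-seq, 1 library per mouse. Alignment by the authors was to mm10 plus the PyMT sequence, and the values they deposited are whole UMI counts per gene and barcode, not normalized. The labels name STAR and FastQC without versions and human genome builds (GRCh37.p13, hg19), but the matrices hold mouse gene symbols. Coordinates are from the GENCODE annotation of GRCm38. Mitochondrial genes were absent from 5 matrices and were removed from 2. No doublet caller was run, and 7 fibroblasts had over 5000 UMIs.

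Deposited barcodes numbered 4000 to 7000 per tumor (37000 in all), and those with 200 to 6000 genes were kept, 1133 to 4780 per tumor. UMIs were summed per mouse and cell group, with at least 10 cells per group, using Python 3.11.15, numpy 2.4.6, scipy 1.17.1 and pandas 2.3.3. Sums were compared with edgeR 4.0.16 (TMM scaling, quasi-likelihood test, block by mouse, default removal of low genes, Benjamini-Hochberg adjustment over all genes tested). The genes that set 2 compared groups apart were left out of the tests. In the splits among fibroblasts, the genes of the fibroblast rule stayed in the fits, since they chose both sets of cells. The 2 sums of a mouse come from 1 library and are paired by construction. The steps were tested on simulated data. Levels are CPM of these sums without scaling for length, so they are not compared between genes. Intervals are exact, at 95%, and cover counting error only, and 3 UMIs over a group was the floor for a gene with 0 UMIs. The mice are separate animals.

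The members and the 25 gene lists were chosen with earlier results of these data known. Of 435 distinct genes in the lists, 428 were in the files. Genes named with values were the genes and markers that chose the cells, the study's list, the 3 most abundant members and the largest called change of each list, the leading genes of each comparison (10 higher, 5 lower) and the 10 most and 5 least variable genes. Alternatives were a fit without the block, all genes without a filter, DESeq2 1.42.0, each mouse left out, other thresholds and comparison groups, each title series alone, thinned cells and, added after seeing the data, cells matched in depth.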

Additional observations from a re-analysis of the deposited data

Results flagged for a closer look

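Of 31 values over the 7 mice, 10 had 1 mouse whose gap to the nearest other mouse, as a share of the whole range, was over the 95% limit of Dixon's test. Chance alone gives about 1 in 20 such values, a rate that holds only for values not chosen for their spread and independent of each other. Of the 10, 6 are genes that were among the most variable, and the sums hold some of them. In 9 of the 10 the mouse was replicate 8.

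Fibroblasts were 34.0% of the cells of replicate 8 and 2.21 to 7.61% of those of the others, and barcodes under 200 genes held 5847 CPM of Col1a1, Col1a2, Col3a1 and Dcn there and 432 to 1692 CPM elsewhere. Among fibroblasts of replicate 8, Ccl2 lay at 4233 CPM (720 to 1966 CPM elsewhere) and Cxcl2 at 2947 CPM (31.4 to 522 CPM elsewhere). The summed immune genes lay at 2660 CPM (60.5 to 749 CPM elsewhere), with Igkc at 2138 CPM (at most 22.7 CPM elsewhere) and Igha at 1424 CPM (at most 20.9 CPM elsewhere). These 3 values rest on the same cell, which held 730 of the 745 Igkc and 485 of the 496 Igha UMIs. Without that cell the immune sum was 566 CPM, within the range of the other mice, and Igkc and Igha were at 43.5 and 31.9 CPM. Erythroid genes summed to 8262 CPM (0 to 2561 CPM elsewhere), with Hbb-bs at 4710 CPM (0 to 1683 CPM elsewhere). The remaining value was Igfbp5 in the fibroblasts of replicate 1, at 8203 CPM against 851 to 2138 CPM elsewhere. The causes were not tested.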

How the results depend on the processing

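The counts of called genes rest on the filter on low counts, the depth of cells and, within fibroblasts, on single mice, and the cause of each change was not tested unless fewer genes or mice were used. Against collagen-free cells, edgeR called 2211 genes, 5085 (1785 higher and 3300 lower of 31017) without the filter, 1296 (681 higher, 615 lower) against Ptprc cells alone, 1308 (513 higher, 795 lower) with cells of 500 to 1500 UMIs, a setting chosen after seeing the data, and 1976 to 3133 with 1 mouse left out. Against endothelial-type cells it called 390, 691 without the filter and 347 to 486 with 1 mouse left out. Against basal-keratin cells it called 674, 1998 without the filter and 588 to 740 with 1 mouse left out. The contractile split gave 53 calls, 169 without the filter, 5 without the block, 0 thinned and 3 to 53 with 1 mouse left out. The adventitial split gave 76, 157 without the filter, 22 without the block, 34 thinned and 39 to 84 with 1 mouse left out. The contractile share of adventitial-positive cells minus that of adventitial-free cells was -13.5 points, -7.61 points with 300 UMIs per cell, and lay between -15.9 and -9.20 points with 1 mouse left out, where exact sign-flip p = 0.0625 was the smallest that 5 mice allow. The 2 sums of a mouse are paired by construction, so the fits keep the mouse as a block and the sign-flip test compares within mice.

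Over the named genes against collagen-free cells, 2506 of 2559 refitted values kept their direction and side of the threshold. Log2 fold changes that changed sign were those of Nfe2l2 (0.07), at -0.029 with DESeq2, -0.27 without the filter, -0.0258 with at least 10 UMIs of the genes of the rule, -0.98 against Ptprc cells, -0.23 in the WT series, -0.22 at matched depth and -0.0915 (without replicate 2) to 0.12 (without replicate 3) with 1 mouse left out, of Gsk3b (0.19), at -0.19 without the filter, -0.012 in the CB series and -0.20 at matched depth, and of Prkar1a (0.15), at -0.23 without the filter, -0.066 in the WT series, -0.0446 at matched depth and -0.079 without replicate 4. Mfge8 went to 1.17 against Ptprc cells, and against epithelial cells Apoe went to 2.17, Fcer1g to 0.49 and Lyz2 to 0.59. Of the refitted values, 457 of 514 kept their call against endothelial-type cells, 910 of 924 against basal-keratin cells, 126 of 238 in the contractile and 286 of 387 in the adventitial split. The median log2 fold change of all genes moved by over 0.1 with DESeq2 (-0.12), without the filter (-0.36), without replicate 8 (-0.17), in the CB series (-0.20) and at matched depth (-0.21) against collagen-free cells, without the filter by 0.64, -0.38 and 0.22 in the endothelial-type comparison and the contractile and adventitial splits, by 0.11 without replicate 5 in the endothelial-type comparison and by 0.11 with thinned cells in the contractile split.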
